A study of Mus musculus with 4 samples.

Results

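The 10 genes described here are the mouse genes that build, load and switch on MHC class II molecules. They were chosen by name, and all 10 were found among the 55421 genes counted in the uterus of pregnant mice. Whole uteri were taken at E18.5, late in gestation, and sequenced as messenger RNA, with 1 library per mouse. There were 2 wild-type (WT) mice of strain C57BL/6J and 2 Qa-2- mice of strain B6.Cg-H2b3/FlaCmwJ, which lack Qa-2, regarded as a candidate murine counterpart of the human pregnancy-associated MHC molecule HLA-G. The study bred each strain with its own males, so mother and fetus shared their MHC genes in both groups, and no other agent or allele separates the groups in the labels. The Qa-2- strain is a congenic line that carries its own stretch of the MHC, so the comparison is between strains as well as between mice with and without Qa-2. How far that stretch reaches towards the class II genes is not given in the sources used here.

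MHC class II molecules show peptides from taken-up material to CD4+ T cells. An alpha and a beta chain (in these mice H2-Aa with H2-Ab1) pair in the endoplasmic reticulum around the invariant chain Cd74, which fills the groove until endosomal proteases break it down. H2-DM, made of H2-DMa and an H2-DMb chain, then exchanges the last fragment for antigenic peptide, and H2-DO, made of H2-Oa and H2-Ob, restrains H2-DM. Transcription of most of the set depends on the coactivator Ciita, which binds to factors seated on the class II promoters and is itself switched on by interferon-gamma. In the uterus these genes are known mainly from macrophages, dendritic cells and B cells. In whole tissue, fewer cells of a type and less RNA per cell cannot be told apart.

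The libraries held between 33286390 and 41041299 counted read pairs, so that a limit of 3 counts, which covers counting error only, lay between 0.0731 and 0.0901 counts per 1000000 counted read pairs (CPM). The genes missing in the Qa-2- strain behaved as labelled. H2-Q7 had 6318 and 1251 read pairs in the WT libraries and 4 and 2 in the Qa-2- libraries, and H2-Q6 had 4204 and 1192 against 3 and 3. The summed CPM of 6 smooth muscle markers lay between 10504 and 34402, and all 6 had counts in every library, as did 4 genes for uterine hormone receptors and homeobox factors. The summed CPM of 8 trophoblast and yolk sac markers was 5.53 and 59.3 in the WT libraries and 413 and 23.0 in the Qa-2- libraries, of which Afp, a yolk sac and fetal liver gene, made up 380 CPM in Qa-2- replicate 1. The trophoblast genes Psg21 and Prl3b1, named here after their values were seen, had 308 and 155 read pairs in WT replicate 2 and were at 0 in each of the others. The fetal marker sum was thus highest in Qa-2- replicate 1 and next highest in WT replicate 2, and counts of these markers were found in every library. Whether fetal tissue bears on the class II values was not tested.

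All 10 class II genes were detected in every library, at levels spread over more than 2 orders of magnitude. In transcripts per 1000000 transcripts (TPM), which divides by gene length and allows genes to be compared, Cd74 had the highest mean over the 4 libraries with 496 (range 399 to 648). The classical chains followed, with H2-Eb1 at 166 (134 to 205), H2-Ab1 at 142 (115 to 174) and H2-Aa at 86.9 (75.5 to 105). The ranges of H2-Eb1 and H2-Ab1 overlapped, whereas those of H2-Ab1 and H2-Aa did not. The H2-DM chains lay lower, H2-DMb1 at 25.4 (22.6 to 31.1) and H2-DMa at 11.4 (9.38 to 14.5). The other 4 genes were rare, with Ciita at 1.95 (1.25 to 2.23), H2-DMb2 at 1.71 (1.402 to 2.15), H2-Ob at 0.867 (0.759 to 1.01) and H2-Oa at 0.796 (0.559 to 1.16). Neither Ciita and H2-DMb2 nor H2-Ob and H2-Oa could be separated by their ranges in TPM.

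The order of the classical chains depended on the length used. The TPM values divide by all annotated exon bases of a gene, which include exons of rarely used forms, 3798 bases for H2-Aa and 2568 for H2-Ab1. With the length of the transcript that has the longest coding sequence, 1128 bases for H2-Aa and 1212 for H2-Ab1, their mean levels in CPM per kilobase came to 98.3 and 101.2. H2-Eb1 came to 92.4 on that scale and no longer led. On the same scale H2-Ob, at 0.950 (0.833 to 1.13), passed H2-DMb2, at 0.707 (0.616 to 0.907), though their ranges overlapped. Ciita, at 1.47 (1.01 to 1.72), here had a range above that of H2-DMb2. H2-Ob likewise had a range above that of H2-Oa, at 0.346 (0.249 to 0.490). Cd74 stayed first at 198. The place of H2-Aa among the classical chains thus depends on which exons are counted in its length.

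Within a library, the classical chains stood in nearly fixed proportions to each other, and so did H2-DMa and H2-DMb1. H2-Aa had between 59.5% and 65.7% of the TPM of its partner H2-Ab1 in the 4 libraries, or between 94.5% and 104% per length of the coding transcript. H2-Eb1 had between 112% and 119% of the TPM of H2-Ab1, which became 88.0% to 93.1% with the coding transcripts. The chaperone Cd74 had between 3.003 and 3.91 times the TPM of H2-Ab1, or between 1.69 and 2.20 times by coding transcripts. The scale thus sets the size of a ratio and for H2-Eb1 its direction. The spread between libraries stayed narrow for H2-Aa and H2-Eb1 and was wider for Cd74. H2-DMa had between 41.6% and 46.6% of the TPM of H2-DMb1, or between 72.2% and 81.0% by coding transcripts. The ratio of H2-Oa to H2-Ob was looser, with 108% and 130% in WT against 79.7% and 55.5% in Qa-2- by TPM. By coding transcripts it was 43.0% and 51.4% against 31.6% and 22.0%, so H2-Oa lay below H2-Ob in all 4 libraries on that scale, and H2-Oa rested on between 9 and 21 read pairs per library. The coactivator Ciita did not keep a fixed proportion to H2-Ab1, with 0.940% and 1.27% in WT and 1.84% and 1.52% in Qa-2-. These proportions are descriptions over 4 libraries and were not tested.

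**Figure D1:**
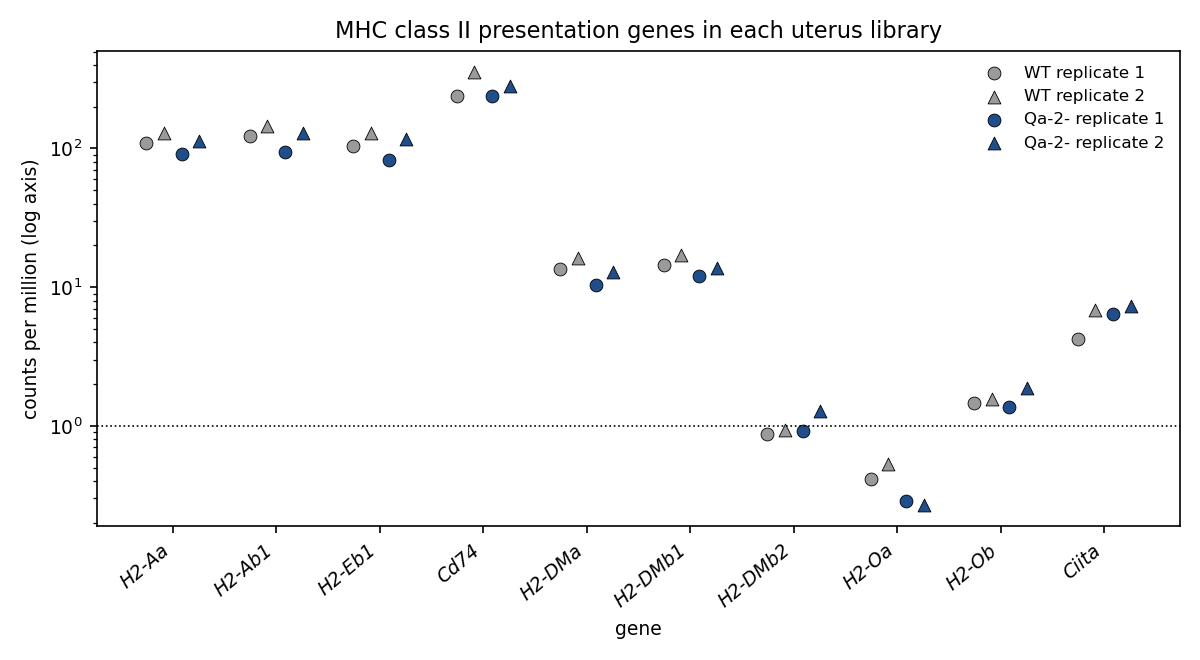
CPM of the 10 MHC class II presentation genes (horizontal axis) in each of the 4 uterus libraries on a log axis, with WT in grey, Qa-2- in blue, replicate 1 as circles and replicate 2 as triangles. The dotted line is 1 CPM. The genes span from 0.270 CPM for H2-Oa to 354 CPM for Cd74, and within each genotype replicate 2 is above replicate 1 for every gene except H2-Oa in Qa-2-.

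The comparison of WT with Qa-2- uteri asks whether the loss of Qa-2 in late pregnancy goes with another supply of class II transcripts. Genes reaching 1 CPM in 2 or more of the libraries were compared by the quasi-likelihood test of edgeR, and a gene was called at an adjusted p below 0.05 over all 14492 genes kept. Of the class II genes, 8 passed the expression filter and 0 of them were called, higher or lower, by edgeR. Over all genes 0% were called in either direction, so the test called nothing anywhere at this size of study. Even H2-Q7 and H2-Q6, nearly absent in Qa-2-, each had an adjusted p of 0.228 in edgeR. DESeq2 called both, with an adjusted p of 5.9e-28 and 2.7e-29. A missing call in edgeR therefore does not show that a gene was unchanged. At an unadjusted p below 0.05 edgeR gave 0 of the 8 against 15.2% of all genes (8.09% higher and 7.09% lower in WT), and DESeq2 called 0 of the 8 against 2.79% (higher in WT) and 2.04% (lower in WT) of all genes. The estimates leaned towards WT in 7 of the 8, with a median log2 fold change (WT over Qa-2-) of 0.32 beside 0.012 over all genes tested. This median rested on single libraries, since it came to 0.15 without WT replicate 2, 0.18 without Qa-2- replicate 1, 0.47 without WT replicate 1 and 0.45 without Qa-2- replicate 2.

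The 3 classical chains, which form the groove that holds the peptide, gave estimates close to each other. H2-Aa (chr17:34282744-34287823, minus strand, in the annotation of GRCm38) had 109 and 129 CPM in the WT libraries and 91.4 and 114 CPM in the Qa-2- libraries, that is 119 ± 14.1 against 103 ± 15.8 (SD, n = 2 each). WT replicate 2 was highest and Qa-2- replicate 1 lowest, and the groups overlapped. The log2 fold change was 0.32 with a standard error (SE) of 0.19 and a 95% interval from -0.17 to 0.81 (edgeR, adjusted p = 0.474).

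H2-Ab1 (chr17:34257689-34269419, plus strand), the partner of H2-Aa, had 122 and 145 CPM in WT and 94.1 and 129 CPM in Qa-2-. The same libraries were highest and lowest as for H2-Aa, and Qa-2- replicate 2 lay between the WT libraries. Its log2 fold change was 0.36 (SE 0.22, interval -0.20 to 0.92, edgeR, adjusted p = 0.473). The fold interval for H2-Ab1 thus ran from 0.872 to 1.89, and a difference above 1.89-fold lies outside it.

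H2-Eb1 (chr17:34305867-34316674, plus strand) encodes the beta chain of a second class II molecule. It had 104 and 129 CPM in WT and 83.2 and 116 CPM in Qa-2-, with overlapping groups and a log2 fold change of 0.33 (SE 0.23, interval -0.26 to 0.91, edgeR, adjusted p = 0.528). With 1 library left out, this estimate lay between 0.12 (without Qa-2- replicate 1) and 0.56 (without Qa-2- replicate 2), that of H2-Ab1 between 0.17 and 0.57 for the same libraries, and that of H2-Aa between 0.17 (without WT replicate 2) and 0.45 (without Qa-2- replicate 2). Its alpha chain partner is known to be unexpressed in C57BL/6 mice. H2-Ea-ps, the pseudogene left of it, had 0 read pairs in all 4 libraries, which allows up to 0.0901 CPM in the smallest library. H2-Eb2, a further beta chain gene next to H2-Eb1, had 5 and 18 read pairs in WT and 5 and 9 in Qa-2-, too few for the expression filter. H2-Eb1 transcript was thus present near the level of the H2-A chains, while transcript of the partner pseudogene H2-Ea-ps was not detected.

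Cd74, the invariant chain, lies on another chromosome than the other chain genes, at chr18:60803848-60812652 on the plus strand. It had 240 and 354 CPM in WT and 241 and 282 CPM in Qa-2-. WT replicate 2 was far above the other 3 libraries, WT replicate 1 was level with Qa-2- replicate 1, and the groups overlapped. The log2 fold change was 0.28 (SE 0.27, interval -0.39 to 0.96, edgeR, adjusted p = 0.635), and without WT replicate 2 it was -0.043.

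The H2-DM genes, whose product edits the peptides, did not overlap between the genotypes for the chains that passed the filter, as was so for 25.4% of all genes tested in the direction of higher WT values after TMM scaling. H2-DMa (chr17:34119541-34139101, plus strand) had 13.4 and 16.3 CPM in WT and 10.3 and 12.8 CPM in Qa-2-. Both WT libraries were above both Qa-2- libraries, and its log2 fold change of 0.46 was the largest among the members tested (SE 0.22, interval -0.10 to 1.03, edgeR, adjusted p = 0.389). With 1 library left out, the H2-DMa estimate lay between 0.30 (without WT replicate 2) and 0.60 (without Qa-2- replicate 2).

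H2-DMb1 (chr17:34153072-34160230, plus strand), the beta chain of H2-DM, had 14.4 and 17.03 CPM in WT and 12.1 and 13.8 CPM in Qa-2-. The WT libraries were above both Qa-2- libraries here too, with a log2 fold change of 0.38 (SE 0.20, interval -0.14 to 0.89, edgeR, adjusted p = 0.426). With 1 library left out, the H2-DMb1 estimate lay between 0.23 (without WT replicate 2) and 0.48 (without WT replicate 1). Its neighbour H2-DMb2 (chr17:34143307-34151555, plus strand) encodes a near-identical beta chain, with 95.9% of 783 coding bases shared. H2-DMb2 had 36 and 37 read pairs in WT and 32 and 43 in Qa-2-, which is 0.877 and 0.939 CPM against 0.916 and 1.29 CPM, with overlapping groups and just below the filter. Read pairs with several positions were not counted, and 11.3% of 100-base windows of H2-DMb1 transcripts and 10.3% of those of H2-DMb2 occur in the other gene, so some pairs of either gene may be missing. How many was not measured. The TPM of H2-DMb2 came to between 5.31% and 8.99% of that of H2-DMb1 in the 4 libraries.

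The chains of H2-DO, the restraint on H2-DM, are known mostly from B cells and some dendritic cells, and both were rare here. H2-Ob (chr17:34238903-34254414, plus strand) had 1.46 and 1.57 CPM in WT and 1.37 and 1.86 CPM in Qa-2-, with overlapping groups and a log2 fold change of 0.0061 (SE 0.37, interval -0.95 to 0.96, edgeR, adjusted p = 0.995). H2-Oa (chr17:34092340-34095234, plus strand) had 17 and 21 read pairs in WT and 10 and 9 in Qa-2-. These are 0.414 and 0.533 CPM against 0.286 and 0.270 CPM, with both WT libraries above both Qa-2- libraries but all below the filter. Fitted without the filter, H2-Oa had a log2 fold change of 0.87 with an interval from -0.83 to 2.57, and H2-DMb2 one of -0.17 with an interval from -1.34 to 0.999. Both intervals cover 0, so no difference was shown for either gene.

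Ciita (chr16:10480059-10528418, plus strand), the coactivator of classical class II transcription, was the one member with an estimate below 0 among the 8 tested. It had 4.26 and 6.85 CPM in WT and 6.41 and 7.30 CPM in Qa-2-. WT replicate 1 was the lowest library and the other 3 were close together, so the groups overlapped. The log2 fold change was -0.20 (SE 0.33, interval -1.04 to 0.63, edgeR, adjusted p = 0.795), and without WT replicate 1 it was 0.085.

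Mice of one genotype also differed from each other, and largely in the same direction across the class II genes. WT replicate 2 was above WT replicate 1 for 10 of 10 genes, from 1.07-fold for H2-DMb2 to 1.61-fold for Ciita. Qa-2- replicate 2 was above Qa-2- replicate 1 for 9 of 10, up to 1.41-fold for H2-DMb2, the exception being H2-Oa at 0.944. In CPM, WT replicate 2 was the highest library for 7 of the 10 genes and Qa-2- replicate 1 the lowest for 6. Both WT libraries were above both Qa-2- libraries for 3 of 10 genes in CPM of library totals (H2-DMa, H2-DMb1 and H2-Oa). After TMM scaling, which corrects for differences in composition, this count was 5 of 10 with H2-Aa and H2-Ab1 added, 4 of them among the 8 tested, and 0 genes had both WT libraries below. Over all genes tested the shares were 25.4% above and 24.5% below. An exact permutation test of 2 against 2 libraries cannot give a p below 0.33.

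A shared feature of the class II genes that the choice by name did not use is their promoter. The classical type has an X box, bound by the RFX complex, often joined by an X2 box for CREB, and a Y box, bound by NF-Y, and Ciita docks on the assembled factors. RefSeq promoters of GRCm38.p6, from 250 bases before to 50 after the start, were at hand for 7 of the members (H2-Aa, H2-Eb1, H2-DMa, H2-DMb1, H2-DMb2, H2-Oa and H2-Ob). The table has no entry for H2-Ab1 and Ciita, and the promoter of Cd74 was not used here. In the 250 bases upstream on the coding strand, the Y box core ATTGG was found in all 7, close to the start in 6 of them. It began 48 bases before the start in H2-Aa, 59 in H2-Eb1, 61 in H2-DMb1, 90 in H2-DMb2, 43 in H2-Oa and 57 in H2-Ob, whereas in H2-DMa it began 198 bases before one of the starts listed. On either strand, 33.8% of 32851 RefSeq promoters hold these 5 letters in the same stretch, so the match alone is common. The X box core AGNNACNGA was found upstream of the Y box in H2-Eb1, H2-DMb1 and H2-Oa, with 24, 25 and 89 bases between the boxes. It occurs in 14.7% of all promoters on either strand, and both cores together in 4.72%. Closer to its Y box, H2-Oa also holds AGCAACAAA, which misses the X box core by 1 letter. The same letters stand upstream of the Y box in H2-Ob. The X2 letters TGACGNNA (5.66% of promoters) were found in H2-Aa, as the palindrome TGACGTCA from 74 to 67 bases before the start. Of the interferon motifs, TTCNNNGAA (7.02% of promoters) was found in H2-DMb2 and GAAANNGAA (7.13%) in none of the 7, which is near the share among all promoters.

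The stretches upstream of the RefSeq start of 4 of these genes are given because they carry the boxes in different completeness. They are read 5′ to 3′ on the coding strand, overlap no annotated exon of their own gene, and have matches to the X or Y box core, on either strand, in capitals. Overlap with exons of other genes was not checked. The stretch of H2-DMb2 lies inside the annotated gene, since a longer form with an exon further upstream is annotated.
H2-Aa, with Y box and X2 letters, chr17:34287824-34287973, minus strand: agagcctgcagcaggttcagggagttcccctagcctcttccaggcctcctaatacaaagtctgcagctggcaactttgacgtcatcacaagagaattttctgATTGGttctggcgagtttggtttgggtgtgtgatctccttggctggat
H2-Eb1, with X and Y box, chr17:34305717-34305866, plus strand: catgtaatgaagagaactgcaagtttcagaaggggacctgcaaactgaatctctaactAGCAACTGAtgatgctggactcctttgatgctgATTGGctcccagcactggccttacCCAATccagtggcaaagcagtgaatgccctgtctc
H2-DMb2, with Y box, chr17:34145099-34145235, plus strand: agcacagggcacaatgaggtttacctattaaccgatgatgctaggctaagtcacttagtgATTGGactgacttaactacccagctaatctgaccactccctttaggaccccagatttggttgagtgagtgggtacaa
H2-Ob, with Y box, chr17:34238755-34238902, plus strand: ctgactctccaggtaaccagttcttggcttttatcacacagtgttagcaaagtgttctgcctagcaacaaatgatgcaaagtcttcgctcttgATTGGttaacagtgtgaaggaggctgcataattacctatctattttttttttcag
In H2-Eb1 the X box reads AGCAACTGA and lies from 92 to 84 bases before the start. The closest letters upstream of the Y box of H2-Ob, AGCAACAAA, differ from the motif at position 8 (G8A, counted from 1 at the 5′ end of the box). For the H2-DMb pair, 209 bases of the promoters could be aligned with 83.3% identity. In this alignment the X box of the abundant H2-DMb1, AGTAACTGA, stands against ATTAACCGA in the rare H2-DMb2 (G2T and T7C), and G2T takes it out of the motif. These are matches of letters and not measured binding, and the missing match says nothing about the factor.

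The factors that bind these promoters were transcribed throughout and did not pass the test. Of 10 promoter factors and coactivators, 10 were tested, 0 were called, and 0 reached an unadjusted p below 0.05 in edgeR, with 5 estimates above 0 and 5 below and a median log2 fold change of -0.067. After TMM scaling, 5 of the 10 had both WT libraries below both Qa-2- libraries and 3 had both above. Over all genes tested the shares were 24.5% below and 25.4% above. Rfx5, the RFX subunit that contacts the X box, had 13.4 and 15.9 CPM in WT and 20.8 and 19.0 CPM in Qa-2-, without overlap (log2 fold change -0.34, SE 0.19, edgeR, adjusted p = 0.442). The other RFX subunits Rfxank and Rfxap had log2 fold changes of 0.036 and 0.22, and the NF-Y subunits Nfya, Nfyb and Nfyc had 0.065, 0.21 and -0.17. The lowest estimate was that of the coactivator Ncoa1 at -0.38 and the highest that of Rfxap.

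Genes on the way from interferon-gamma to Ciita gave no common direction. Ifng, the cytokine itself, had 11 and 11 read pairs in WT and 3 and 1 in Qa-2-, which is below the filter, and the Qa-2- values lie at or under the limit of 3 counts. Of the 8 genes tested, 4 were estimated higher and 4 lower in WT, 0 were called, and the median log2 fold change was -0.0063. Irf1, a transcription factor that acts on the Ciita promoter, had 0.20 (SE 0.16). The kinase Jak2 had 207 and 118 CPM in WT and 259 and 344 CPM in Qa-2- (log2 fold change -0.80, SE 0.32, edgeR, adjusted p = 0.338). Socs1, the feedback inhibitor of this pathway, had 2.66 and 3.30 CPM against 4.38 and 6.64 CPM (-0.79, SE 0.34, edgeR, adjusted p = 0.354).

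Among 10 genes of endosomal processing, which break down antigen and the invariant chain, 0 were called by edgeR, 9 were estimated higher in WT, and the median log2 fold change was 0.52. In edgeR, 5 had an unadjusted p below 0.05, all higher in WT, against 8.09% of all genes in that direction. Ctss, the cathepsin that trims the invariant chain, had 85.9 and 84.1 CPM in WT and 43.5 and 66.7 CPM in Qa-2- (log2 fold change 0.72, SE 0.22, edgeR, adjusted p = 0.285). The legumain gene Lgmn had 0.60 (SE 0.20), the thiol reductase gene Ifi30 had 0.43 (SE 0.14) and cathepsin Z (Ctsz) had 0.76 (SE 0.28). Cst3, an inhibitor of cathepsins, had 483 and 401 CPM against 252 and 282 CPM (log2 fold change 0.82, SE 0.21), an adjusted p of 0.266 in edgeR and of 0.011 in DESeq2, which called 1 gene of the list as higher in WT (2.79% of all genes). Sppl2a, the protease that clears the last piece of the invariant chain, was the gene with an estimate below 0 (-0.071, SE 0.15). Macrophage markers were estimated higher in WT as well (9 of 10, median 0.71), and their part in the estimates of the processing genes was not tested. Of the 3 tested genes of class II turnover, March1, a ubiquitin ligase that removes class II from the surface, had 0.59 (SE 0.33) and March8 had 0.012 (SE 0.18). Cd80, which gives the second signal to the T cell, led the costimulation list with 7.19 and 5.58 CPM in WT and 1.77 and 1.74 CPM in Qa-2- (log2 fold change 1.95, SE 0.30, edgeR, adjusted p = 0.246). DESeq2 called Cd80, with an adjusted p of 9.4e-05, and no other gene of that list, of which the lowest was Cd4 at -0.68 (SE 0.57).

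**Figure D2:**
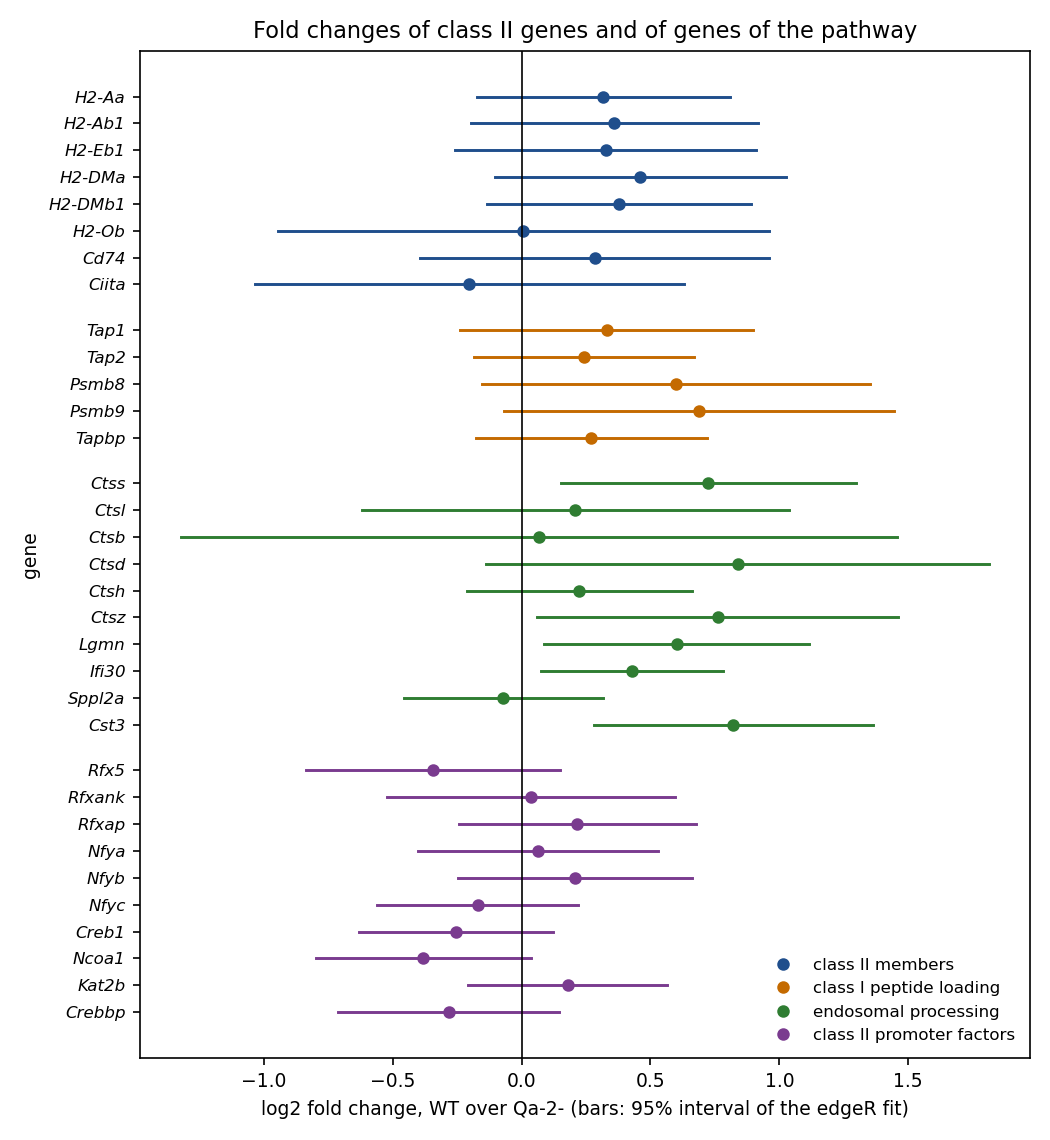
Log2 fold change, WT relative to Qa-2- (horizontal axis), with its 95% interval from the edgeR fit for the 8 tested class II members (blue), 5 genes of class I peptide loading (orange), 10 of endosomal processing (green) and 10 promoter factors and coactivators (violet), 1 gene per line. All intervals of the members cover 0, and 5 intervals, all of processing genes, do not.

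The genes beside the class II genes on chromosome 17 were estimated much as the members were. From H2-Oa to H2-Eb2 the region spans 249 kb and holds 21 annotated genes, of which 11 passed the filter. Among these the 6 members had a median of 0.34 on the log2 scale of the fold change, the 5 others had 0.33, and 0 of the others had an unadjusted p below 0.05 in edgeR. These others include 4 genes that supply class I molecules with peptide. The immunoproteasome genes Psmb9 and Psmb8 had log2 fold changes of 0.69 (SE 0.30) and 0.60 (SE 0.30), and the peptide transporter genes Tap1 and Tap2 had 0.33 (SE 0.22) and 0.24 (SE 0.17). Brd2, a bromodomain gene that overlaps H2-DMa on the opposite strand, had -0.13 (SE 0.19). With Tapbp, which bridges class I and the transporter (0.27, SE 0.18), all 5 class I loading genes were estimated higher in WT, 0 were called, and 4 of 5 had both WT libraries above both Qa-2- libraries after TMM scaling. Beside this, 25.4% of all genes tested had both WT libraries above. Psmb8 had 41.03 and 31.6 CPM in WT and 18.7 and 32.7 CPM in Qa-2-, highest in WT replicate 1, whereas Tapbp, with 210 and 222 CPM in WT and 186 and 197 CPM in Qa-2-, was ordered like H2-DMa. H2-Q7 lies 1181 kb from the start of H2-Ab1 on the same chromosome. Whether strain differences in sequence alter the mapping of reads in this region was not tested.

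**Figure D3:**
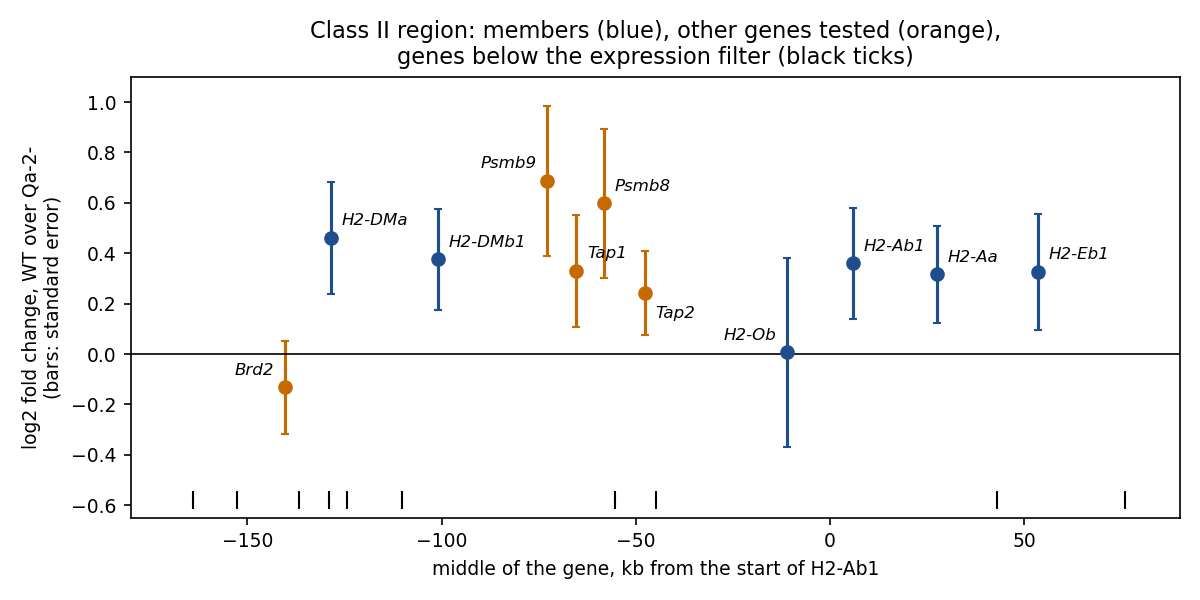
Log2 fold change, WT relative to Qa-2-, with its SE (vertical axis) for the genes of the class II region, against the distance in kb of the middle of each gene from the start of H2-Ab1. Members are blue, the 5 other tested genes orange, and black ticks mark the genes below the expression filter. Apart from Brd2 at -0.13 and H2-Ob at 0.0061, the tested genes lie between 0.24 and 0.69.

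The summed CPM of the 10 members was 610 and 801 in WT and 541 and 678 in Qa-2-. The libraries thus ranked WT replicate 2, Qa-2- replicate 2, WT replicate 1 and Qa-2- replicate 1. The 10 macrophage marker genes summed to 928 and 1344 CPM in WT and 873 and 718 in Qa-2-, with 10 of 10 detected in every library. Of these, 5 had an unadjusted p below 0.05 in edgeR, all higher in WT, against 8.09% of all genes in that direction. DESeq2 called 3 higher in WT, against 2.79% of all genes, and the median log2 fold change was 0.71, from -1.01 for Cd14 to 0.98 for the complement gene C1qc. Qa-2- replicate 2 had the lowest macrophage sum and the second highest class II sum, so that H2-Aa, H2-Ab1 and H2-Eb1 together came to 0.361 and 0.301 of the macrophage sum in WT and 0.308 and 0.5002 in Qa-2-.

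Dendritic cell markers ranked differently. The 10 of them summed to 88.4 and 123 CPM in WT and 90.4 and 93.0 CPM in Qa-2-, and 7 were tested with a median log2 fold change of 0.20, from -1.41 for Flt3, the growth factor receptor of these cells, to 0.66 for the lectin gene Clec10a. Clec10a alone had 38.7 and 72.5 CPM in WT and 42.1 and 33.2 CPM in Qa-2-. Only Flt3 had an unadjusted p below 0.05 in edgeR, against 7.09% of all genes lower in WT. After TMM scaling, 1 of the 7 had both WT libraries above and 2 had both below, against 25.4% and 24.5% of all genes. The 8 B cell markers were rare, summing to 5.97 and 10.5 CPM in WT and 6.07 and 8.14 CPM in Qa-2-. The 4 general leukocyte markers summed to 159 and 192 CPM in WT and 155 and 153 CPM in Qa-2-. Set against that sum, H2-Aa, H2-Ab1 and H2-Eb1 came to 2.10 and 2.10 in WT and 1.74 and 2.35 in Qa-2-, with the WT values inside the range of the Qa-2- values.

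Other tissue parts differed between the libraries as well. The smooth muscle markers summed to 20158 and 34402 CPM in WT and 19743 and 10504 in Qa-2-, and the 9 epithelial markers to 2170 and 1271 CPM in WT and 3191 and 3249 in Qa-2-, all 9 estimated lower in WT. Haemoglobin made up 0.0345% and 0.0671% of WT counts and 0.0112% and 0.00768% of Qa-2- counts. The part of these differences in tissue make-up in the class II estimates was not tested.

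**Figure D4:**
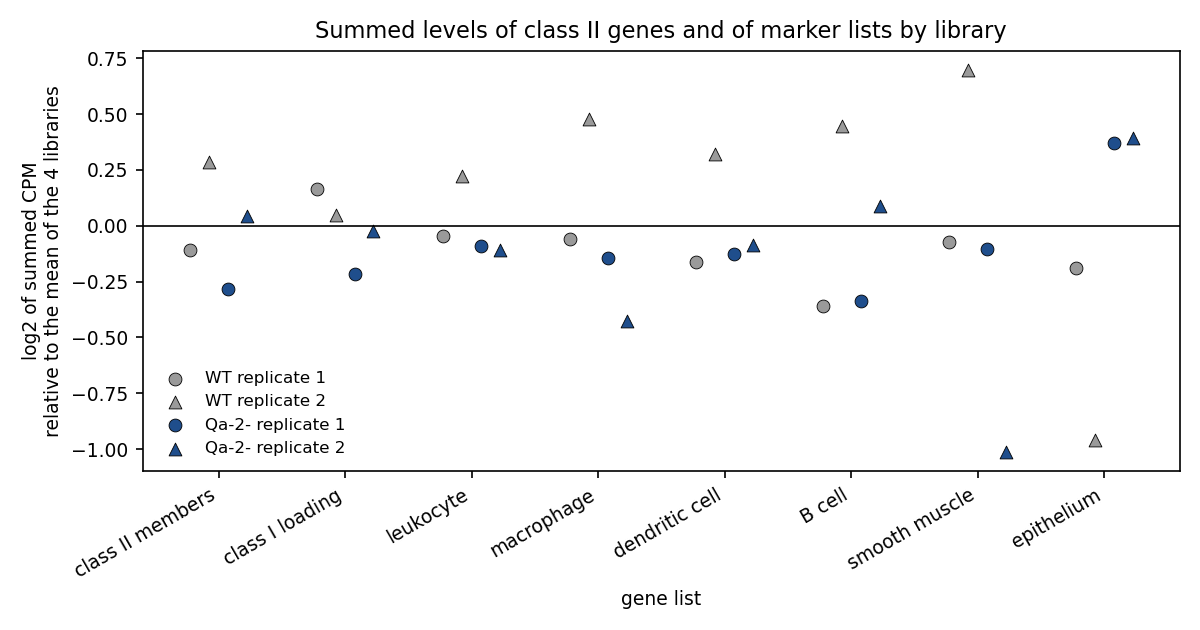
Summed CPM of the class II members, the class I loading genes and 6 marker lists (horizontal axis) in each library, as log2 relative to the mean of the 4 libraries, with WT in grey, Qa-2- in blue, replicate 1 as circles and replicate 2 as triangles. The class II sum is highest in WT replicate 2 (801 CPM) and lowest in Qa-2- replicate 1 (541 CPM), the macrophage sum is lowest in Qa-2- replicate 2 (718 CPM), and the epithelial sum is higher in both Qa-2- libraries.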

How the data were processed

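RNA was taken from whole, snap-frozen uteri and made into directional libraries (NEB Next Ultra II). The authors deposited raw counts, that is read pairs assigned to each gene of GRCm38.p6 with no normalization. The submitters' processing notes name STAR 2.7.3a and featureCounts 2.0.0, and the file headers give reverse-strand counting (setting 2), a minimal mapping quality of 3, and that pairs mapped to several positions or genes were left out. Of 55421 gene identifiers, 55240 were named from GENCODE M21.

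The groups follow the sample titles. The 2 libraries of each group differed by more than sampling noise (chi-square per gene 188 and 118). The series design gives 2 mice per genotype. Genes reaching 1 CPM in 2 or more libraries were compared with edgeR 4.0.16 (TMM, glmQLFit, glmQLFTest) in R 4.3.3, and p-values were adjusted by Benjamini-Hochberg over every gene that passed. The steps were tested on simulated data. Intervals of fold changes are 95% intervals of that fit, and values with an SD are CPM of library totals. TPM used the deposited gene lengths.

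The members and lists were chosen with earlier results of these data known. All members were named. From marker lists the genes with the highest and lowest estimates may be named, and any gene of the pathway lists and of the region. Among the 5 genes of most similar pattern, likeness was the Euclidean distance of centred log2 CPM. Alternatives were DESeq2 1.42.0, other scalings and filters, removal of haemoglobin and mitochondrial genes, a replicate block and leaving out each library. Added after seeing the data were a crossed block and the length of 1 coding transcript.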

Additional observations from a re-analysis of the deposited data

How the results depend on the processing

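Of the class II genes, 0 were called by edgeR or DESeq2 under every alternative that was run, and 0 had an unadjusted p below 0.05 in the edgeR comparison of the report. Their median log2 fold change lay between 0.22 (library totals alone) and 0.33 with all 4 libraries and between 0.15 and 0.47 when 1 library was left out. Library totals moved the median of all genes from 0.012 to -0.083. Over 8 alternatives with 4 libraries, 62 of 64 values of single members kept their direction and their side of the threshold, and with 1 library left out 28 of 32 did. The exceptions changed sign. H2-Ob was -0.00020 in DESeq2 and -0.092 with library totals, and lay between -0.18 and 0.21 with 1 library left out. In the same way Cd74 lay between -0.043 and 0.52 and Ciita between -0.61 and 0.085. The adjusted p of members in the alternatives lay between 0.262 and 0.9998. The cause was not tested.

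Over all genes, edgeR called 0 genes, DESeq2 700 (404 higher and 296 lower in WT) and edgeR without the filter 61 (47 and 14). With 1 library left out, which assumes that the lone library varies like the other group, the count lay between 0 and 45, the latter without WT replicate 2. The replicate block called 2 genes. Over all genes, libraries with the same number had a correlation of -0.37 in their deviations from the group means. This is a single value, since with 2 libraries per group the crossed correlation has the same size and the opposite sign. The labels name no shared litter or day, so the numbers were not taken to pair mice. The crossed pairing, added after seeing the data, called 0. With 2 libraries per group, the intervals of the members tested reach a fold (WT over Qa-2-) of 2.04 for H2-DMa and 0.488 for Ciita. H2-DMb2 and H2-Oa had few read pairs and were below the filter.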

Other observations

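A mean of at least 10 CPM was reached by 10063 genes, class II genes included. Those outside the class II genes were ranked by how closely their pattern over the 4 libraries followed the mean of H2-Aa, H2-Ab1, H2-Eb1 and Cd74. The measure was the Euclidean distance of centred log2 CPM. The closest were Armc6 (0.088), Anapc13 (0.11), Nfib (0.13), Pnrc1 (0.13) and Pola2 (0.14), and no other gene of presentation was among these 5. Armc6, for example, had 10.99 and 14.9 CPM in WT and 9.82 and 12.0 CPM in Qa-2-. With 4 libraries a close distance is a description of these libraries.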
